A study of Homo sapiens with 12 samples.

Results

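Genes for the mitochondrial ribosomal proteins were taken from RNA-seq of primed and naive human embryonic stem cells. They were chosen by symbol alone, as every gene named MRPL or MRPS with a number. The rule found 76 of the 23613 gene symbols kept from the deposited tables, 47 named for the large subunit (MRPL) and 29 for the small subunit (MRPS). All 76 passed the filter on low values, which asked for at least 1 FPKM in at least 3 libraries. FPKM is the number of fragments per kilobase, divided by library size.

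The mitochondrial ribosome, or mitoribosome, translates the few proteins encoded by mitochondrial DNA, which are core subunits of the respiratory chain and of the ATP synthase. Its RNAs come from mitochondrial DNA, while all of its proteins are encoded in the nucleus, made in the cytosol and imported. Some of them have a counterpart in the bacterial ribosome and others are found only in mitochondria. Primed human pluripotent cells are known for relying largely on glycolysis, and naive cells for a greater use of respiration.

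H9 and RUES2 are established lines of human embryonic stem cells, and each was sampled in 2 states, which gave 4 groups of 3 libraries. Primed H9 (passages 31 to 35) and primed RUES2 (passages 30 to 33) were grown with 4 ng/mL bFGF on mouse embryonic fibroblasts that mitomycin had stopped from dividing. Naive H9 (passages 27 to 31) and naive RUES2 (passages 24 to 26) were grown with LIF (20 ng/mL), the MEK inhibitor PD0325901 (1 µM) and the GSK3 inhibitor CHIR99021 (3 µM), in medium that held insulin at 18 µg/mL and glucose at 5 mM. The labels of the 12 libraries name no mTOR inhibitor. State and medium therefore cannot be told apart, and neither can state and passage. RNA came from colonies picked by hand, and poly(A) RNA was sequenced. Replicates are described as biological, but nothing says whether they were separate cultures, so the p-values cover only the spread among these libraries, which may be partly technical. In bulk RNA, fewer cells of a type and less RNA per cell cannot be told apart.

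Summed FPKM ran from 762869 to 992404 per library, and 12681 to 13592 genes reached 1 FPKM. All 10 pluripotency markers (POU5F1, SOX2, NANOG and others) averaged at least 1 FPKM in every group, but 5 of them were lower and 0 higher in naive than in primed H9, and 9 were lower and 1, NANOG, higher under the RUES2 label. Their summed level was 2239 to 2794 FPKM in primed H9, 1442 to 1490 in naive H9, 2174 to 2657 under the primed and 1498 to 1756 under the naive RUES2 label. Of 15 fibroblast or feeder markers tested, 9 were higher and 1 lower in naive than in primed H9, and 9 were higher and 2 lower in the RUES2 comparison. The summed level of these markers was 438 to 928 FPKM in primed H9, 959 to 1288 in naive H9, 391 to 691 in primed RUES2 and 629 to 1914 in naive RUES2. The part of these markers in the results on mitoribosomal genes was not tested. Of the fibroblast markers, 1 of 16 was at 0 in all libraries of primed H9 and 1 in all labelled primed RUES2, and none in the naive groups. Of 8 proliferation markers, 3 were higher and 2 lower in naive H9, and 2 higher and 1 lower in naive RUES2. Among all genes tested, 20.4% were higher and 23.9% lower in naive H9, and 23.1% and 23.6% in naive RUES2. A check of line identity found 3 libraries of 12, with none from the H9 groups, that differed from the rest sharing their line label. Groups are therefore called the libraries labelled primed or naive RUES2, and no difference between the line labels is read as a difference between the lines. For the same reason, a difference between states under the RUES2 label may include a difference between lines. That comparison is then not a clean repeat of the one in H9.

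Promoters of the set often held the core letters of a site for ETS factors, the family of GABP (nuclear respiratory factor NRF-2), a known activator of nuclear genes for mitochondria. RefSeq promoters (GRCh38.p14) were at hand for 67 of the 76 genes. In the 250 bases before any listed start, on either strand, CCGGAAG was found in 24 of them (35.8%), against 10.2% of 27195 symbols. These are all symbols with a RefSeq promoter on the autosomes and X, chosen neither by expression nor as coding genes, while all 76 genes were expressed. Shares among expressed coding genes alone were not determined. The core of the site of NRF1, another such activator, GCATGCGC, was in 6 (8.96% against 3.22%), and the YY1 motif AAGATGGCG in 3 (4.48% against 0.787%). CCAAT, a general promoter element, was in 21 (31.3% against 37%). The ETS and YY1 letters can overlap at AAG, and a match is a description of the sequence, not a site shown to be bound. The windows below show the match in capitals, first for 5 genes that were higher in the naive state under both line labels, then for MRPL51 and MRPL3, which passed the test under neither, and last the NRF1 core of MRPS18C.
MRPL40 (GRCh38.p14 chr22:19432515-19432544, plus strand): actgtggaggggcgcacgcCCGGAAGcggc
MRPS12 (GRCh38.p14 chr19:38930924-38930953, plus strand): ctgcacggatagcgcCCGGAAGaggctaga
MRPL18 (GRCh38.p14 chr6:159790430-159790459, plus strand): gggacttgctaCTTCCGGgtcggtggcgtc
MRPL47 (GRCh38.p14 chr3:179604659-179604688, minus strand): ggcttgagacgCCGGAAGtgacgctatcgt
MRPL27 (GRCh38.p14 chr17:50373218-50373247, minus strand): ccacgcagggcCCGGAAGtagatctcctga
MRPL51 (GRCh38.p14 chr12:6493348-6493377, minus strand): cggcaggcggaCCGGAAGcactgaggcggg
MRPL3 (GRCh38.p14 chr3:131502985-131503014, minus strand): tgtaaaacgcaCCGGAAGtgggtccggcgg
MRPS18C (GRCh38.p14 chr4:83455911-83455940, plus strand): agaaaggtgctGCGCATGCgtattgaaaaa

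The ETS letters were found among genes that rose and among genes that did not pass. They were in 9 of 21 promoters (42.9%) of genes called higher under both line labels and in 6 of 21 (28.6%) of genes called under neither. The NRF1 core was in 1 of the former 21 and in 4 of the latter. No test was made of these shares.

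The genes were of middling and fairly even level. Averaged over the 12 libraries, 65 of the 76 lay between 20 and 100 FPKM, 5 above 100 and 6 below 20, with a median of 45.2. On this scale per length, MRPS21, the counterpart of bacterial S21, was highest at 216 FPKM, and MRPL51, a protein found only in mitochondria, followed at 193. MRPL20 and MRPS34 stood at 126 and 118 FPKM. MRPL22, whose bacterial counterpart lines the exit tunnel, was lowest at 8.67, below MRPL19 at 10.4 and MRPS14 at 10.9. The highest and the lowest level thus differed 24.9-fold, although the assembled ribosome holds 1 copy of most of these proteins. The 5 highest genes made up 19.1% of the summed FPKM of the set.

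MRPL51 read 181, 195 and 167 FPKM in primed H9, 193, 193 and 196 in naive H9, 185, 197 and 206 in libraries labelled primed RUES2 and 205, 194 and 200 in those labelled naive RUES2. The groups overlapped, with log2 differences of 0.10 ± 0.07 (SE, adjusted p = 0.261) and 0.03 ± 0.07 (adjusted p = 0.749). MRPL22, at the low end, had 7.38 to 8.03 FPKM in primed H9 and 8.31 to 8.91 in naive H9, and at 8.22 to 9.74 and 9.14 to 9.89 under the RUES2 label. MRPL19 gave 10.3 ± 0.146 and 9.74 ± 0.267 FPKM (SD, n = 3) in H9 and 10.6 ± 0.742 and 11.1 ± 1.44 under the RUES2 label. None of these 3 genes passed the test in either state comparison.

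The tables hold no read counts. Taking the deposited confidence bounds to span 2 counting SD on each side, the genes rest on 160 to 4435 fragments per library with a median of 808, which is a counting error of 3.52% at the median and 7.91% at most. The median coefficient of variation among the 3 libraries of a group was 7.91% in primed H9, 3.98% in naive H9, 7.12% under the primed RUES2 label and 7.5% under the naive RUES2 label. Genes of a library moved together: primed H9 replicate 3 was the lowest of its group for 53 of the 76 genes, primed RUES2 replicate 2 for 55, and naive RUES2 replicate 3 for 54. Naive RUES2 replicate 2 was the highest of its group for 55 of them. The genes are therefore not independent of one another within a comparison.

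In the naive state the set as a whole stood higher. Mitoribosomal genes summed to 3591, 3666 and 3235 FPKM in primed H9 and to 4023, 4120 and 4084 in naive H9, a ratio of the means of 1.17. They summed to 3697, 3420 and 3870 FPKM in libraries labelled primed RUES2 and to 4633, 5036 and 4381 in those labelled naive RUES2, a ratio of 1.28. All naive libraries were above all primed libraries under both labels. No test was made of the sums, since the genes were chosen with earlier results of these data known.

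Gene by gene, differences are given as naive minus primed on the scale of log2(FPKM + 1), which shrinks the change of weakly expressed genes, and a gene is called at an adjusted p under 0.05. In H9, 29 of the 76 genes (38.2%) were higher in the naive state, where 20.4% of all 14428 genes tested were, and 1 was lower, where 23.9% of all genes were. Under the RUES2 label 46 (60.5%) were higher, against 23.1% of all genes, and 1 was lower, against 23.6%. The median difference was 0.21 in H9 and 0.33 under the RUES2 label, with medians of -0.01 and 0.01 over all genes tested. The sign was positive for 62 genes in H9 and for 69 under the RUES2 label. When the libraries labelled naive RUES2 were left out of the fit, 30 genes were called higher in H9. Of the 5961 genes called in that fit, 45.4% were higher. Called higher under both labels were 25 genes, which is 86.2% of those called in H9 and 54.3% of those called under the RUES2 label. Over all genes tested, these shares were 64.8% and 57.2%. Another 25 genes were called in neither comparison. Of the genes called higher, 20 of 29 in H9 and 34 of 46 under the RUES2 label were called in every alternative run. With libraries rescaled to equal FPKM sums without loci under 300 bases, 35 genes were higher in H9 and 36 under the RUES2 label. The median differences were then 0.23 and 0.25, and the median of the RUES2 minus the H9 difference went from 0.08 to -0.01. Median-of-ratios scaling gave 27 and 42 higher, and quantile normalization 25 and 41. How much larger the count was under the RUES2 label thus depended on the scaling. The balance of all calls moved as well. In the main fit 46% of all calls were higher in H9 and 49.4% under the RUES2 label. These shares were 48.1% and 41.5% with equal sums and 45.4% and 46.9% with median-of-ratios scaling. Quantile normalization gave 51.8% and 50.7%.

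**Figure D1:**
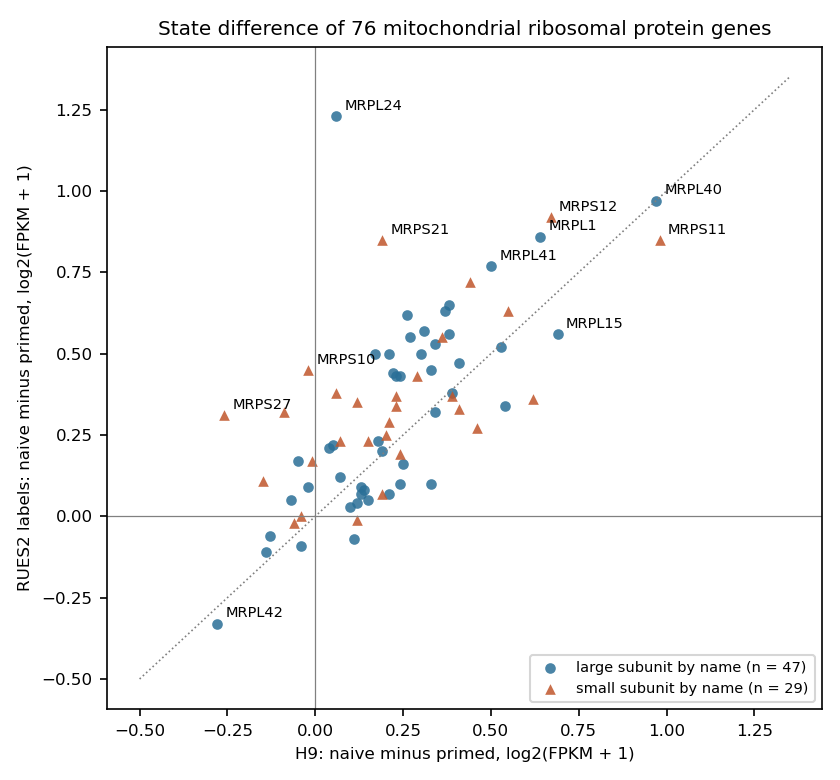
Difference between the naive and primed states on the log2(FPKM + 1) scale in H9 (horizontal) and under the RUES2 label (vertical) for 76 genes, circles for the large and triangles for the small subunit by name; the dotted line marks equal differences. Most points lie above 0 on both axes, MRPL42 lies below 0 on both, and MRPL24 stands at 0.06 and 1.23.

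The clearest rises under both labels came from genes of both subunits. MRPL40, a large-subunit protein with no bacterial counterpart (hg19 chr22:19420036-19423596), read 23.6, 15.2 and 19.5 FPKM in primed H9 and 41.4, 36.8 and 37.4 in naive H9. It read 24.3, 17.2 and 22.4 FPKM in libraries labelled primed RUES2 and 43.7, 44.4 and 38.4 in those labelled naive RUES2. Under each label every naive library was above every primed one, and the log2 difference was 0.97 ± 0.16 (SE) both times, with adjusted p-values of 0.000747 and 0.000691.

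MRPS11, the counterpart of bacterial S11 on the platform of the small subunit (hg19 chr15:89010684-89021861), had 16.8, 17.8 and 11.9 FPKM in primed H9 and 30.2, 30.0 and 32.9 in naive H9. Under the RUES2 label it had 15.1, 14.4 and 16.3 FPKM in primed and 30.1, 28.8 and 26.4 in naive libraries. States did not overlap, and the log2 differences were 0.98 ± 0.13 (adjusted p = 0.000188) and 0.85 ± 0.13 (adjusted p = 0.00039). MRPL46, a large-subunit gene whose RefSeq start lies 320 bases from that of MRPS11 on the other strand, also rose, with log2 differences of 0.53 and 0.52 (adjusted p = 0.00427 and 0.00437). It went from 18.4 ± 2.55 to 27.0 ± 1.98 FPKM in H9 and from 22 ± 2.99 to 31.9 ± 1.07 under the RUES2 label.

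MRPS12, the counterpart of bacterial S12 at the decoding centre (hg19 chr19:39421348-39423659), read 43.3, 40.2 and 31.9 FPKM in primed H9 against 61.6, 60.5 and 62.2 in naive H9. Libraries labelled RUES2 had 40.3, 35.9 and 49.9 FPKM in the primed and 75.7, 92.4 and 72 in the naive state. The states were apart under both labels, by 0.67 ± 0.14 (adjusted p = 0.0036) and 0.92 ± 0.14 (adjusted p = 0.000525) in log2. The locus of MRPS12 overlaps that of SARS2, and strandedness was not given in the sources used here. Its values are uncertain for that reason.

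MRPL1, the counterpart of the bacterial L1 stalk protein (hg19 chr4:78783805-78873944), had 20.0, 24.0 and 13.3 FPKM in primed H9 and 31.1, 29.9 and 27.4 in naive H9. It had 20.0, 20.5 and 21.2 FPKM under the primed RUES2 label and 39.9, 41.0 and 33.8 under the naive RUES2 label. The primed H9 libraries spread most here, with a coefficient of variation of 28.5%, and still lay below the naive ones. Differences were 0.64 ± 0.17 (adjusted p = 0.0116) and 0.86 ± 0.17 (adjusted p = 0.00212).

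MRPL41, a large-subunit protein found only in mitochondria (hg19 chr9:140446309-140447007), rose from 72.4 ± 9.01 to 102 ± 4.05 FPKM in H9 and from 68.3 ± 1.94 to 118 ± 9.48 under the RUES2 label. MRPL15, the counterpart of bacterial L15, rose from 37.5 ± 2.98 to 60.9 ± 2.18 FPKM and from 41.5 ± 2.39 to 61.6 ± 3.48. Its difference in H9, 0.69 ± 0.08 in log2, had the lowest adjusted p of the set in that comparison, 6.53e-05. Neither gene overlapped between states.

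Among small-subunit genes, MRPS5 rose from 29.4 ± 2.62 to 43.5 ± 0.213 FPKM in H9 and from 30.5 ± 2.1 to 47.8 ± 2.2 under the RUES2 label, by 0.55 ± 0.08 and 0.63 ± 0.08 in log2 (adjusted p = 0.000279 and 0.000113). MRPS17, like MRPS5 a counterpart of a bacterial protein, rose from 42.5 ± 1.52 to 58.3 ± 7.12 FPKM and from 42 ± 5.07 to 69.5 ± 5.31, by 0.44 ± 0.11 and 0.72 ± 0.11 (adjusted p = 0.00801 and 0.000446). The rest called higher under both labels were MRPL12, MRPL18, MRPL21, MRPL23, MRPL27, MRPL35, MRPL37, MRPL47, MRPL48, MRPL49, MRPL53, MRPS18C, MRPS2, MRPS23, MRPS24 and MRPS7. Several of these calls were lost in part of the alternatives. In H9 the call of MRPS23 was lost under 11 alternatives, those of MRPL37 and MRPL48 under 10, of MRPL21 and MRPL27 under 6, of MRPS24 under 5 and of MRPL53 under 3, and leaving out any 1 H9 library lost at least 1 of them. Under the RUES2 label the calls of MRPL37 and MRPL49 were lost under 9 and that of MRPS2 under 4, among them leaving out naive RUES2 replicate 2 or primed RUES2 replicate 2.

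**Figure D2:**
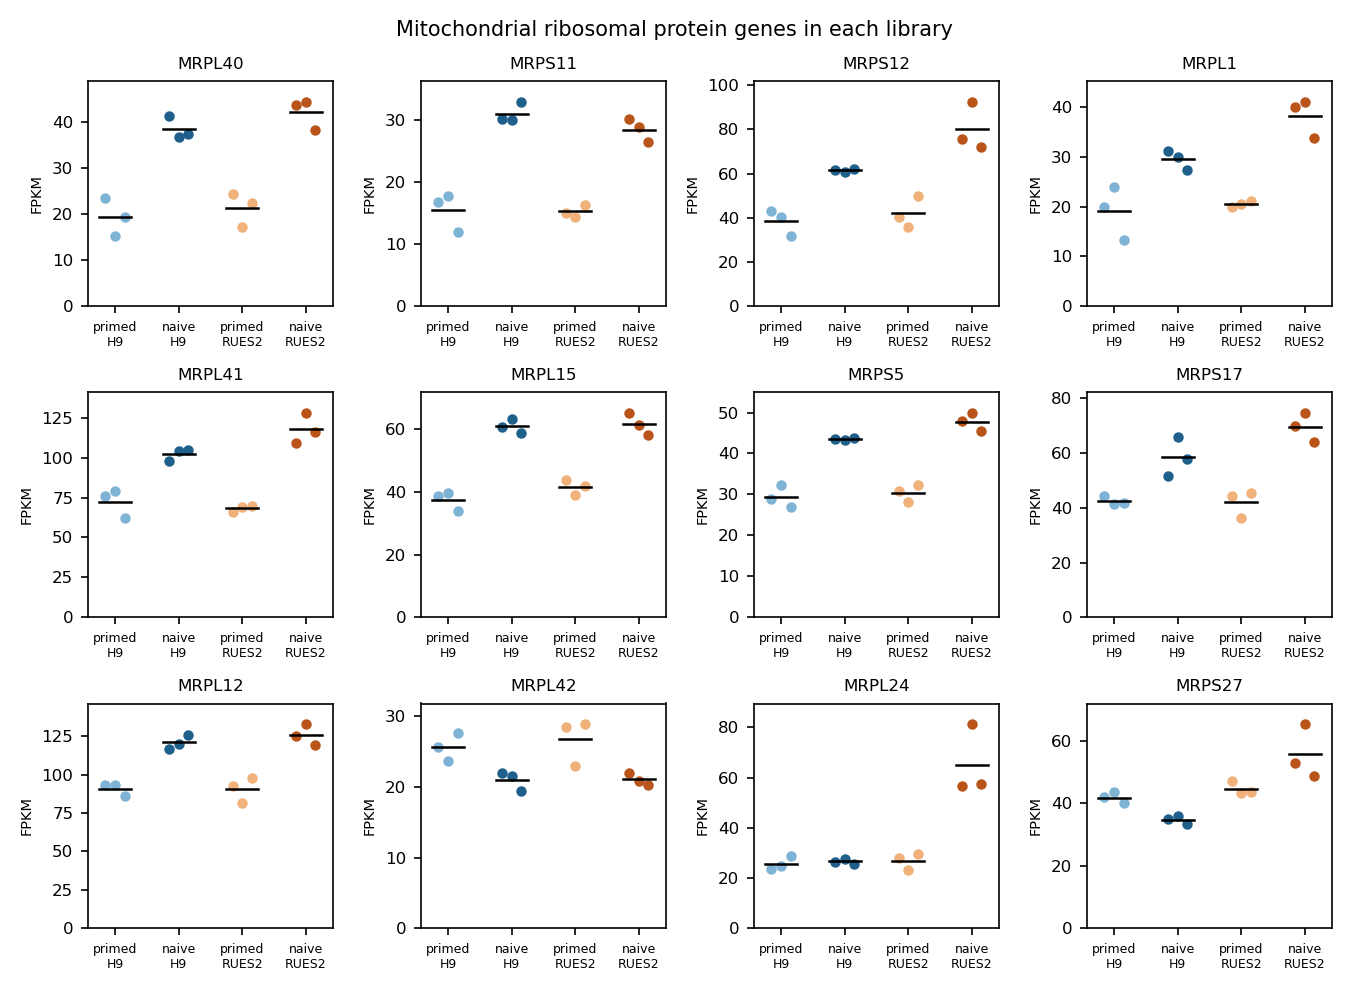
FPKM of 12 mitochondrial ribosomal protein genes in each of the 12 libraries; points are libraries in the order of replicates 1 to 3, lines are group means, and every axis starts at 0. MRPL40 and MRPS11 are apart between states under both labels, MRPL42 is lower in naive libraries, and MRPL24 is high only in the libraries labelled naive RUES2.

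MRPL42, a protein found only in mitochondria and placed in the large subunit (hg19 chr12:93861266-93897548), was the 1 gene called lower in either state comparison. It read 25.7, 23.6 and 27.6 FPKM in primed H9 and 22, 21.5 and 19.4 in naive H9, and 28.5, 23 and 28.9 against 22, 20.9 and 20.3 under the RUES2 label. Naive libraries lay below primed ones each time, though by little. The differences were -0.28 ± 0.10 (adjusted p = 0.0399) and -0.33 ± 0.10 (adjusted p = 0.0182). The H9 call was lost under 9 alternatives, with adjusted p-values of 0.0511 to 0.136: with median-of-ratios scaling, without all libraries labelled naive RUES2 or without replicate 1 or 3 of these, without any naive H9 library and without primed H9 replicate 1 or 3. The RUES2 call was lost without naive RUES2 replicate 3, primed RUES2 replicate 1 or primed RUES2 replicate 3, with adjusted p-values of 0.0574 to 0.0695.

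Called in H9 but not under the RUES2 label were 4 genes, MRPL14, MRPL39, MRPS16 and MRPS22. Called under the RUES2 label but not in H9 were 21: MRPL4, MRPL9, MRPL20, MRPL24, MRPL30, MRPL33, MRPL36, MRPL38, MRPL43, MRPL45, MRPL54 and MRPL55 of the large subunit, and MRPS10, MRPS14, MRPS18B, MRPS21, MRPS25, MRPS27, MRPS30, MRPS33 and MRPS36 by name of the small one. Of these single-label calls, that of MRPL39 in H9 was lost under 4 alternatives, and under the RUES2 label those of MRPL43, MRPL45, MRPS33, MRPL54, MRPS30 and MRPS25 under 14, 9, 7, 6, 4 and 2. Called in neither were MRPL2, MRPL3, MRPL10, MRPL11, MRPL13, MRPL16, MRPL17, MRPL19, MRPL22, MRPL28, MRPL32, MRPL34, MRPL44, MRPL50, MRPL51, MRPL52, MRPS6, MRPS9, MRPS15, MRPS18A, MRPS26, MRPS28, MRPS31, MRPS34 and MRPS35. These differences of calls do not show a difference between the labels. The test of that difference itself called 2 of the 76 genes (2.63%) with a larger rise under the RUES2 label, MRPL24 and MRPS27, where it called 3.77% of all genes, and 0 with a smaller rise, where it called 1.93%. At an unadjusted p under 0.05 in limma the counts were 10 and 0, and 4 of the 10 lie on the long arm of chromosome 1. Shares of all genes at an unadjusted p were not determined, here or in later paragraphs.

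The share of genes that rose was close between the 2 subunits. In H9, 18 of 47 large-subunit genes (38.3%) and 11 of 29 small-subunit genes (37.9%) were higher in the naive state, and the 1 lower gene was of the large subunit. Under the RUES2 label the counts were 28 of 47 (59.6%) and 18 of 29 (62.1%). Median log2 differences were 0.22 for the large and 0.20 for the small subunit in H9, and 0.32 and 0.33 under the RUES2 label. MRPS18A and MRPS30 carry small-subunit names but are part of the large subunit in the assembled ribosome. Counted there, the large subunit had 18 of 49 higher and the small 11 of 27 in H9, and 29 of 49 and 17 of 27 under the RUES2 label. MRPS36, also named for the small subunit, is now known as a part of the 2-oxoglutarate dehydrogenase complex; it stood at 14.4 ± 0.287 and 16.8 ± 0.754 FPKM in H9 (adjusted p = 0.0602, passed under 4 alternatives) and rose from 16.6 ± 1.79 to 20.5 ± 1.49 under the RUES2 label (adjusted p = 0.0169, lost under 4).

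By summed level the large subunit had 2240, 2292 and 2007 FPKM in primed H9 and 2530, 2572 and 2584 in naive H9. The small subunit had 1350, 1374 and 1228 FPKM in the same primed and 1493, 1547 and 1500 in the same naive libraries. The ratio of large to small was 1.65 ± 0.017 (SD, n = 3) in primed and 1.69 ± 0.03 in naive H9. It was 1.70 ± 0.048 under the primed and 1.61 ± 0.066 under the naive RUES2 label. In log2 the ratio moved by 0.03 in H9 and by -0.08 under the RUES2 label, and the libraries of the 2 states overlapped in H9. Without the 3 genes of highest level, MRPS21 among them, the second value was 0.02, so the sign of this ratio of sums rested on those genes. The H9 ratios were then 1.64 to 1.65 in primed and 1.67 to 1.73 in naive libraries, without overlap. With medians over genes the ratio was 1.05 ± 0.063 in primed and 1.1 ± 0.056 in naive H9. It was 1.11 ± 0.014 under the primed and 1.08 ± 0.027 under the naive RUES2 label.

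**Figure D3:**
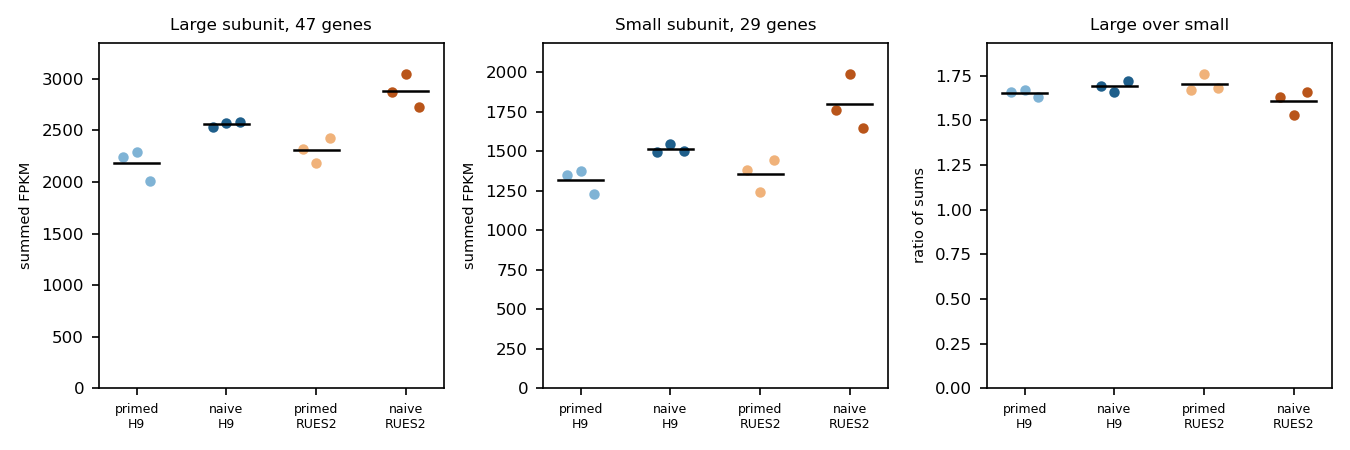
Summed FPKM of the 47 large-subunit genes, of the 29 small-subunit genes, and the ratio of both sums, by library; points are libraries, lines are group means, and every axis starts at 0. Both sums are higher in naive than in primed libraries, and group means of the ratio stay between 1.61 and 1.70.

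A grouping by evolutionary origin, added after values were seen, put 45 genes with a bacterial counterpart beside 26 found only in mitochondria; 5 were not classed. Of the former 19 were higher in naive H9 (42.2%) and 27 under the RUES2 label (60%), and of the latter 10 (38.5%) and 15 (57.7%). In H9, where 20.4% of all genes were higher, 9 of 16 small-subunit genes with a counterpart (56.2%) and 2 of 9 found only in mitochondria (22.2%) were called. The large subunit had the opposite order, with 10 of 29 (34.5%) and 8 of 17 (47.1%). No test was made of these counts.

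Bacterial S18 has 3 human counterparts, which sit at different places in the ribosome. MRPS18C, the one at the place of bacterial S18, rose from 18.5 ± 2.87 to 28.8 ± 0.394 FPKM in H9 and from 21.2 ± 0.666 to 27.5 ± 1.16 under the RUES2 label (log2 differences 0.62 and 0.36, adjusted p = 0.000512 and 0.00985). MRPS18A had group means of 32.7 to 35.6 FPKM, with log2 differences of 0.12 (adjusted p = 0.157) and -0.01 (adjusted p = 0.88). MRPS18B had 29 ± 0.542 and 31.6 ± 0.387 FPKM in H9 (adjusted p = 0.303) and rose from 35.8 ± 4.6 to 45.7 ± 3.41 under the RUES2 label (adjusted p = 0.00961). MRPS18B is listed on 7 loci, of which the one with the highest level was used.

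The stalk that recruits translation factors to the large subunit is built on MRPL11 and formed by MRPL10 and copies of MRPL12. Of these MRPL12 passed the test, rising from 90.8 ± 4.2 to 121 ± 4.62 FPKM in H9 and from 90.7 ± 8.62 to 126 ± 7.04 under the RUES2 label, by 0.41 ± 0.08 and 0.47 ± 0.08 in log2 (adjusted p = 0.00218 and 0.000882). MRPL11 gave 49.7 ± 4.31 and 48.1 ± 1.9 FPKM in H9 and 56.3 ± 2.84 and 52.9 ± 0.222 under the RUES2 label (adjusted p = 0.671 and 0.345). MRPL10 gave 36.2 ± 2.44 and 32.9 ± 1.72 FPKM in H9 and 44.7 ± 3.34 and 41.2 ± 3.51 under the RUES2 label (adjusted p = 0.223 and 0.297). The point estimates of MRPL10 and MRPL11 were below 0 under both labels, and the difference from MRPL12 was not tested.

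Inherited changes in MRPS16, MRPS22, MRPL3, MRPL44 and MRPL12 are known causes of combined deficiency of the respiratory chain. MRPS22 rose in H9 from 28.0 ± 4.34 to 38.8 ± 1.49 FPKM (adjusted p = 0.01) and gave 28.2 ± 3.42 and 34.2 ± 2.84 under the RUES2 label (adjusted p = 0.0849; 0.0333 without primed H9 replicate 3 and 0.0365 without primed RUES2 replicate 2). MRPS16 rose in H9 from 40.5 ± 3.83 to 47.7 ± 1.88 FPKM (adjusted p = 0.0275), a call lost without naive H9 replicate 1 or 2, without primed H9 replicate 3 and in H9 alone (adjusted p of 0.0706 to 0.0958). It gave 40.8 ± 0.579 and 46.6 ± 2.51 under the RUES2 label (adjusted p = 0.0654; 0.0195 without primed H9 replicate 3). MRPL44, related to RNase III, gave 27.6 ± 3.55 and 32.6 ± 0.76 FPKM in H9 (adjusted p = 0.0519; 0.00819 without primed H9 replicate 1 and 0.0479 without primed RUES2 replicate 2). MRPL3, whose bacterial counterpart reaches towards the catalytic centre, had 90.5 ± 7.46, 89.5 ± 4.97, 90.0 ± 11 and 95.5 ± 5.83 FPKM, the first pair in primed and naive H9 and the second in the same states under the RUES2 label (adjusted p = 0.915 and 0.475).

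Between the line labels the primed libraries held 0 of the 76 genes called higher under RUES2 than H9, where 1.34% of all genes were, and 0 lower, where 0.471% were. At an unadjusted p under 0.05 limma gave 8 higher and 1 lower, and the shares of all genes at that threshold were not determined. The limma count in the naive libraries was 16 higher (21.1%), against 11.2% of all genes, and 0 lower, against 4.69%, with 1 lower at an unadjusted p under 0.05. Median differences were 0.08 in the primed and 0.15 in the naive libraries, with 0.02 over all genes both times. The naive count fell to 9 when any of naive H9 replicate 2, naive H9 replicate 3 or naive RUES2 replicate 2 was left out, and to 10 without naive H9 replicate 1 or naive RUES2 replicate 1. It was also 9 when libraries were rescaled to equal FPKM sums without short loci. That rescaling moved the median of all genes by -0.10 in this comparison, to -0.08, put the median of the mitoribosomal genes at 0.02, and turned the share of all calls that were higher from 70.4% to 45.2% (54.3% with quantile normalization). The excess was not particular to the set. In the main fit, 28.2% of 85 cytosolic ribosomal proteins were higher and 0 lower in this comparison (median 0.30). Of 78 nuclear subunits of the respiratory chain, 23.1% were higher and 3.85% lower (median 0.19).

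MRPL24, the counterpart of bacterial L24 (hg19 chr1:156707094-156710923), stood out from the set. It read 23.5, 24.7 and 28.7 FPKM in primed H9, 26.5, 27.7 and 25.8 in naive H9 and 27.9, 23.1 and 29.7 under the primed RUES2 label. Libraries labelled naive RUES2 had 56.8, 81.4 and 57.4 FPKM, all far above the other 9. The rise between states under the RUES2 label was 1.23 ± 0.14 (adjusted p = 8.74e-05) and that in H9 0.06 ± 0.14 (adjusted p = 0.766). Their difference, 1.18 ± 0.20 (adjusted p = 0.01), was called under every alternative run, at 1.01 to 1.26.

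MRPS27, a small-subunit protein of the pentatricopeptide repeat family (hg19 chr5:71515236-71616084), read 41.9, 43.4 and 39.9 FPKM in primed H9 and 34.9, 36.0 and 33.3 in naive H9. It read 47, 43.1 and 43.4 FPKM under the primed and 52.8, 65.3 and 48.8 under the naive RUES2 label. Naive libraries lay below primed ones in H9 and above them under the RUES2 label. The difference was -0.26 ± 0.10 in H9 (adjusted p = 0.0521), and it passed the test under 7 alternatives, such as 0.0147 without the libraries labelled naive RUES2. Under the RUES2 label it was 0.31 ± 0.10 (adjusted p = 0.0246), a call lost under 6 alternatives (adjusted p of 0.0532 to 0.074), among them leaving out naive RUES2 replicate 2, primed RUES2 replicate 2 or primed RUES2 replicate 3. The difference between labels, 0.56 ± 0.14, had an adjusted p of 0.0404, and the call was lost under 10 alternatives, with adjusted p-values of 0.0601 to 0.102. These were equal sums and leaving out any 1 library other than naive RUES2 replicate 2 or 3 or primed H9 replicate 3. MRPS21 rose under the RUES2 label from 177 ± 23.8 to 321 ± 56.3 FPKM (adjusted p = 0.000436), against 170 ± 8.52 and 195 ± 9.13 in H9 (adjusted p = 0.244), with a difference between labels of 0.65 ± 0.18 that did not pass (adjusted p = 0.0628; 0.0435 without naive RUES2 replicate 3).

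MRPL24 and MRPS21 lie on the long arm of chromosome 1, as do MRPL9, MRPL55 and MRPS14. Genes of that arm as a whole stood higher in the libraries labelled naive RUES2. Of 649 genes tested there, 28.2% were higher than in naive H9, with a median of 0.26, while the medians of the other 22 autosomes or arms ran from -0.05 to 0.05. Against the mean of naive H9, the arm's median was 0.24, 0.35 and 0.21 in the libraries labelled naive RUES2 and -0.01 to 0.07 in the other 9. In the RUES2 state comparison 40.4% of the arm's genes were higher, against 22.1% on the other arms. Of the 5 mitoribosomal genes on the arm, 5 were higher in that comparison (MRPL55 lost its call under 5 alternatives), 4 were higher than in naive H9 (MRPS14 lost its call under 9, among them leaving out any naive H9 library or naive RUES2 replicate 2 or 3, with adjusted p-values of 0.0521 to 0.152), and limma called 0 in the H9 state comparison (1 at an unadjusted p under 0.05). Without them 41 of 71 (57.7%) were higher in the RUES2 state comparison, against 22.1% of all genes on the other arms, and 12 of 71 (16.9%) in naive RUES2 against naive H9, against 10.5%. MRPL24 exceeded its neighbours: its difference from naive H9 was 1.24, while the 10 nearest genes tested had -1.18 to 0.67 with a median of 0.30. The part of the arm in these values was not tested.

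**Figure D4:**
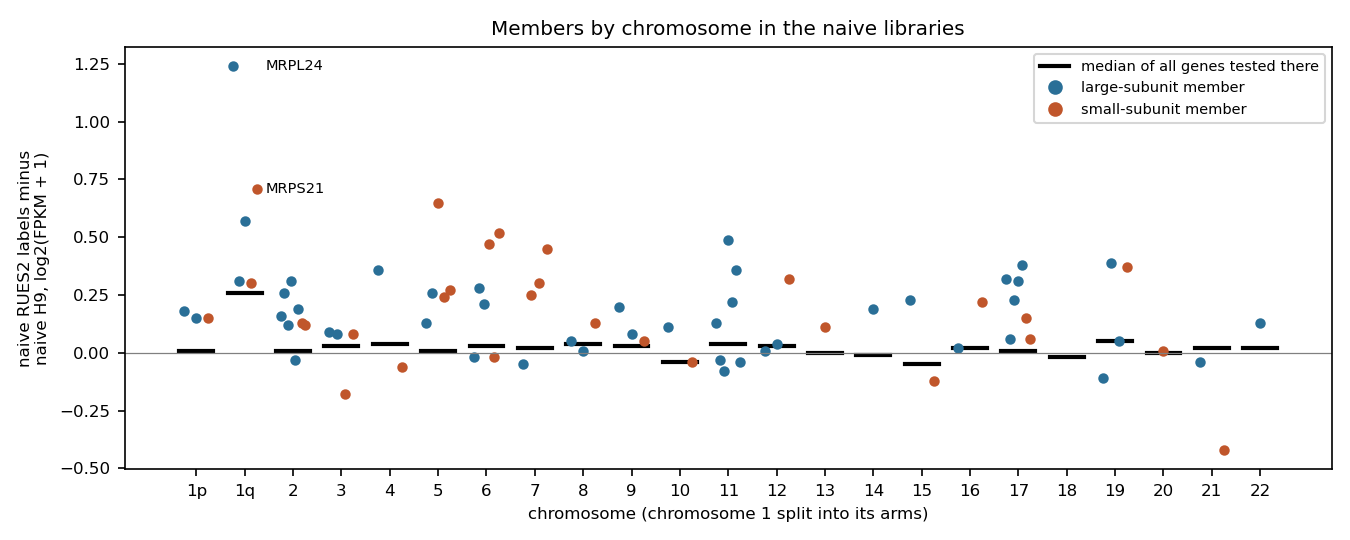
Difference between naive libraries labelled RUES2 and naive H9 on the log2(FPKM + 1) scale for the genes of the set on each autosome (points, coloured by subunit), beside the median of all genes tested on that chromosome or arm (bars). The long arm of chromosome 1 has the one bar away from 0, at 0.26, and holds MRPL24 and MRPS21.

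MRPS18B (0.52, adjusted p = 0.00439), MRPL21 (0.49, adjusted p = 0.01) and MRPS10 (0.47, adjusted p = 0.0097) were among the genes elsewhere that were higher in naive RUES2 than naive H9. MRPL10 was too, at 0.32 (adjusted p = 0.0317), a call lost under 9 alternatives, among them leaving out any naive H9 library or naive RUES2 replicate 1 or 2 (adjusted p of 0.0507 to 0.121). MRPS6 had the lowest value, -0.42, which did not pass the test (adjusted p = 0.0584) but did under 6 alternatives (adjusted p of 0.00719 to 0.0465), such as -0.55 with equal sums. Its locus overlaps that of SLC5A3. In all, 12 of the 76 loci overlap another tested gene, and values of those genes are uncertain for that reason. Whether strand would settle each of these overlaps was not determined.

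Other genes of mitochondrial translation were given by lists. For comparison, 20.4% of all genes tested were higher and 23.9% lower in naive H9, and 23.1% and 23.6% under the RUES2 label. Of 9 mitoribosomal or ribosome-bound proteins with other names, 2 (22.2%) were higher and 0 lower in naive H9, and 4 (44.4%) and 0 under the RUES2 label. In limma 1 and 0 of them were lower at an unadjusted p under 0.05. DAP3, a GTP-binding protein of the small subunit, had 37.1 ± 4.84 and 46.4 ± 2.44 FPKM in H9 (adjusted p = 0.0534, passed under 5 alternatives) and rose from 36.2 ± 2.48 to 65.6 ± 10.7 under the RUES2 label (adjusted p = 0.000382). DAP3 lies on the long arm of chromosome 1, and the part of that arm in its values was not tested. AURKAIP1, also of the small subunit, rose under both labels, by 0.27 (adjusted p = 0.0207) and 0.31 (adjusted p = 0.0104); the H9 call was lost without naive H9 replicate 2 or 3 or primed H9 replicate 3. Of 17 translation factors, 6 (35.3%) were higher and 0 lower in H9, and 9 (52.9%) and 0 under the RUES2 label. Their medians were 0.21 and 0.30, near those of the ribosomal proteins. At an unadjusted p under 0.05 in limma, 0 were lower in either comparison. MRRF, the ribosome recycling factor, rose from 11.2 ± 2.44 to 15.2 ± 1.19 FPKM in H9 (adjusted p = 0.0412) and from 13.3 ± 1.69 to 22.3 ± 3.01 under the RUES2 label (adjusted p = 0.00334). Its H9 call was lost under 10 alternatives, with adjusted p-values of 0.0508 to 0.142, among them leaving out any naive H9 library.

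Aminoacyl-tRNA synthetases and amidotransferase subunits of mitochondria had 3 higher (13.6%) and 2 lower (9.09%) of 22 in H9. Under the RUES2 label 10 (45.5%) were higher and 1 (4.55%) lower, and the medians were 0.00 in H9 and 0.24 there. Of 31 genes for assembly of the mitoribosome and modification of its RNA, 4 (12.9%) were higher and 2 (6.45%) lower in H9. Under the RUES2 label 11 (35.5%) were higher and 2 (6.45%) lower. In H9 both lists had a smaller share higher than the 20.4% of all genes tested, and also a smaller share lower than the 23.9%. The list for assembly and RNA modification had medians of 0.15 in H9 and 0.23 under the RUES2 label, against -0.01 and 0.01 over all genes. GTPBP5, a GTPase of large-subunit assembly, rose by 0.48 and 0.45 (adjusted p = 0.00331 and 0.00381). Of 17 genes that maintain and transcribe mitochondrial DNA, 6 (35.3%) were higher and 2 (11.8%) lower in H9 and 7 (41.2%) and 1 (5.88%) under the RUES2 label. HSD17B10, a subunit of mitochondrial RNase P, rose from 67.3 ± 17.5 to 104 ± 7.01 FPKM in H9 and from 63.7 ± 7.34 to 96.1 ± 7.07 (adjusted p = 0.0081 and 0.0126), while MGME1, a mitochondrial exonuclease, fell by 0.38 and by 0.41 (adjusted p = 0.0121 and 0.00776). Without primed RUES2 replicate 1 the second value of HSD17B10 had an adjusted p of 0.052, and without naive H9 replicate 1 the first of MGME1 had 0.0514.

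Nuclear subunits of the respiratory chain, which assemble with the products of mitochondrial translation, resembled the ribosomal proteins in their counts. Of 78, 37 (47.4%) were higher and 5 (6.41%) lower in H9 (median 0.18), and 53 (67.9%) and 3 (3.85%) under the RUES2 label (median 0.32). Of all genes tested, 20.4% were higher and 23.9% lower in H9, and 23.1% and 23.6% under the RUES2 label. Cytosolic ribosomal proteins did not show such counts. Of 85 tested, 5 (5.88%) were higher and 15 (17.6%) lower in naive H9 (median -0.15), and 12 (14.1%) higher and 1 (1.18%) lower under the RUES2 label (median 0.13). With quantile normalization the second counts were 7 and 6 (median 0.01). Their values are uncertain where processed pseudogenes share reads, and the difference between the lists was not tested.

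**Figure D5:**
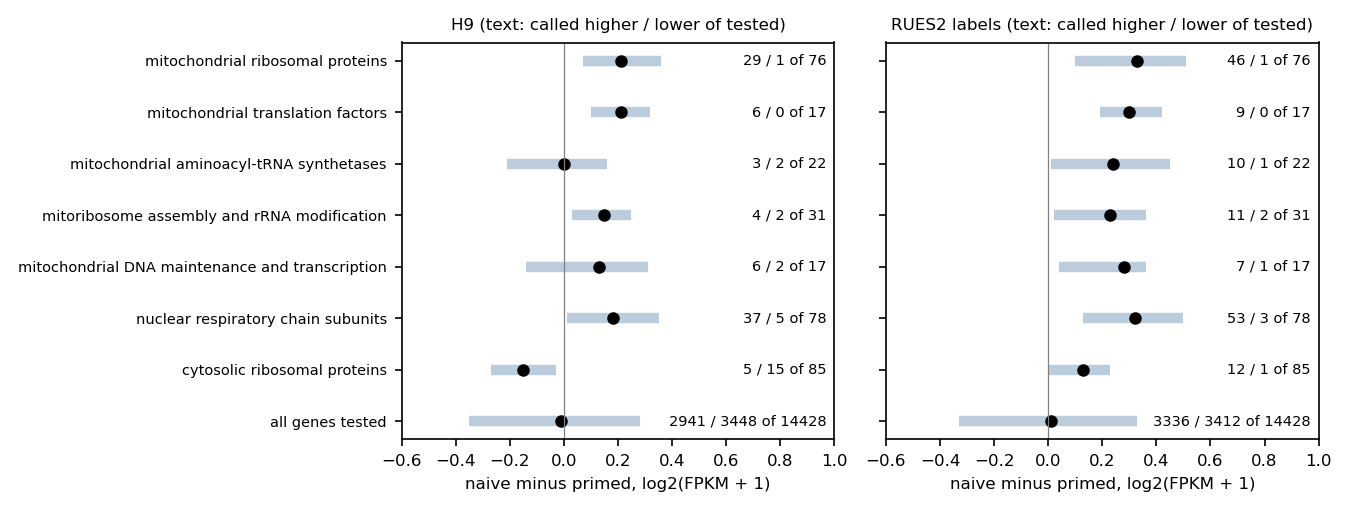
Median (point) and middle 50% of genes (bar) of the difference between naive and primed states on the log2(FPKM + 1) scale, for 7 gene lists and all genes tested, in H9 (left) and under the RUES2 label (right); the text at the right of each panel counts genes called higher and lower. Mitochondrial ribosomal proteins have medians of 0.21 and 0.33 and cytosolic ones of -0.15 and 0.13.

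Of 11 transcription factors of nuclear genes for mitochondria that were tested, 2 (18.2%) were higher and 3 (27.3%) lower in H9. These shares were near the 20.4% and 23.9% of all genes. Under the RUES2 label 4 (36.4%) were higher and 2 (18.2%) lower, against 23.1% and 23.6%. ESRRA, a nuclear receptor that acts with PGC-1 coactivators, rose from 13.5 ± 0.493 to 19.3 ± 1.39 FPKM in H9 and from 12 ± 1.33 to 22.4 ± 2.74 under the RUES2 label (adjusted p = 0.00345 and 0.000113). PPARGC1B, a coactivator of that family, rose by 0.39 and 0.46 (adjusted p = 0.0301 and 0.0139) at group means of 1.53 to 2.88 FPKM. Its H9 call was lost without naive H9 replicate 1 or 2 or primed H9 replicate 1 or 3, and its RUES2 call without naive RUES2 replicate 2 (adjusted p = 0.0546). MYC, a growth regulator, fell in one comparison and rose in the other, from 31.3 ± 12 to 14.5 ± 0.243 FPKM in H9 (adjusted p = 0.0343) and from 19.5 ± 3.12 to 265 ± 141 under the RUES2 label (adjusted p = 2.25e-05), with a difference between labels of 4.57 (adjusted p = 0.00108). The fall of MYC in H9 was lost under 7 alternatives (adjusted p of 0.0524 to 0.124), among them leaving out any naive H9 library or primed H9 replicate 1 or 3.

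Some of these genes start close to a neighbour on the other strand. The share of all genes with such a neighbour was not determined. Within 1000 bases, 26 of the 67 genes with a RefSeq promoter had such a partner, and 19 of these partners were tested, MRPS11 and MRPL46 being counted from both sides. In H9 11 genes of such pairs rose and 3 of their partners rose too, MRPS11, MRPL46 and HELQ beside MRPS18C. Another 3 partners fell: TMEM63B beside MRPL14, EME1 beside MRPL27 and CYB5RL beside MRPL37. Calls of HELQ, MRPL27, MRPL37, TMEM63B and CYB5RL in H9 were each lost under 2 to 11 alternatives. Under the RUES2 label 15 rose, with 4 partners that rose and 2 that fell. Of all genes tested, 20.4% were higher and 23.9% lower in naive H9, and 23.1% and 23.6% under the RUES2 label. No test was made of the partner counts. SARS2, 181 bases from MRPS12, had log2 differences of -0.18 (adjusted p = 0.0866) and -0.24 (adjusted p = 0.0275), opposite in sign to those of MRPS12; the second was lost under 5 alternatives (adjusted p of 0.059 to 0.101).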

How the data were processed

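The 12 libraries are those of established human embryonic stem cell lines. The submitters' processing notes name TopHat2 2.1.1, bcl2fastq 2.17.1.14 and the build hg19. Per the file headers, the authors deposited FPKM values with their confidence bounds, while the design text speaks of RPKM. What program and annotation gave these values was not given in the sources used here. Tables listed 25278 rows for 23615 symbols. Where a symbol had several loci (554 symbols), that of highest mean was kept, and 2 symbols with a status other than OK were left out.

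Genes with at least 1 FPKM in 3 libraries (14428) were tested with limma 3.58.1 (R 4.3.3) on log2(FPKM + 1), two-sided, with 1 mean per group, a variance trend and Benjamini-Hochberg adjustment over all genes tested. The genes described and the lists were chosen with earlier results of these data known. Genes were named by a rule: the 8 highest and 8 lowest of those called alike under both labels, the 3 extremes of each comparison, those called for the difference between labels, the 3 highest and 3 lowest levels, and fixed S18, stalk and disease genes. Other names were chosen after values were seen. The fit was tested on simulated data for the H9 comparison, with 200 genes changed among 14428. Recovery was 32% among the genes changed by 0.5 in log2 and 71% among those changed by 1, with 4.63% false among all called. The main fit called 6389 genes in H9, and recovery and the false share with that many genes changed were not tested. Recovery at 0.21, the median difference of the mitoribosomal genes in H9, was not tested either. Gene coordinates are 1-based, hg19 as deposited; promoters are RefSeq's on GRCh38.p14. Tables and plots used Python 3.11.15, numpy 2.4.6, pandas 2.3.3 and matplotlib 3.10.9. One gene of the lists is not reported by name here.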

Additional observations from a re-analysis of the deposited data

Results flagged for a closer look

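The state effect differed between the line labels for MRPL24 by 1.18 ± 0.20 on the log2(FPKM + 1) scale (SE, limma adjusted p = 0.01), from 0.06 in H9 to 1.23 under the RUES2 label. The value was 1.01 without naive RUES2 replicate 2, its highest library, and stayed called. For MRPS27 the same difference was 0.56 ± 0.14 (limma adjusted p = 0.0404), from -0.26 in H9 to 0.31 under the RUES2 label, and the call was lost under 10 alternatives (adjusted p of 0.0601 to 0.102). Both comparisons rest on the libraries labelled naive RUES2, in which the long arm of chromosome 1, home of MRPL24, had a median 0.26 above naive H9. The part of that arm in the value of MRPL24 was not tested.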

How the results depend on the processing

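The labels give all groups the same replicate numbers, which were not used to pair the libraries in the main fit. Over 18 same-numbered pairs the correlation of deviations ran from -0.054 to 0.136 (median 0.0165), and 2 were over 0.1. Of the 12 libraries, 7 correlated best with a library of their own number, so whether the numbers pair the libraries is not settled. With the replicate block, 2 genes were lower in H9 in place of 1, and 1 was lower in naive RUES2 than naive H9 in place of 0 (MRPS6, adjusted p = 0.0465). The block also turned the calls of MRPL44 in H9 (0.0309) and MRPS16 under the RUES2 label (0.042). The same counts of 2 and 1 came from quantile normalization and from fitting the 6 libraries compared alone. With equal sums the difference between labels called 1 gene higher in place of 2, and naive RUES2 against naive H9 gave 9 higher in place of 16 and 1 lower; median-of-ratios scaling gave 10 higher. Of all calls for the difference between labels 66.1% were higher, against 55.3% with equal sums and 55.9% with quantile normalization. Leaving out 1 library at a time gave 21 to 33 higher and 0 to 2 lower in H9, 35 to 50 higher and 0 to 1 lower under the RUES2 label, 1 to 5 for the difference between labels, 0 to 1 higher in primed RUES2 against primed H9, and 9 to 18 higher and 0 to 1 lower in naive RUES2 against naive H9. Of the 16 genes higher in naive RUES2 than naive H9, 8 were called in every alternative run. The log2 change of the large-to-small ratio was 0.06 in H9 with medians over genes, and 0.02 under the RUES2 label without the 3 highest genes. Among 270 results on named genes and 6249 recomputed values, 190 no longer passed the threshold, 47 newly passed it and 0 called values changed sign. The cause of these changes was not tested. The alternatives without the libraries labelled naive RUES2, and without the long arm of chromosome 1, were chosen after seeing the data. Depth per library is not known from the tables beyond the confidence bounds, and 3 libraries a group limit the precision.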
